A study of Mus musculus with 12 samples.

Results

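Cytotoxic T cells kill by releasing secretory lysosomes, also called lytic granules, at the contact with a target cell. The 10 genes described here encode the machinery that carries these granules to the plasma membrane and fuses them with it (Unc13d, Rab27a, Stx11, Stxbp2, Vamp7 and Vamp8), proteins of the granule membrane (Lamp1, Lamp2 and Cd63) and the proteoglycan of the granule core (Srgn). They were taken by symbol from the 20778 genes of the deposited table, and all 10 passed the filter on low counts that left 12122 genes for testing. Splenic CD8 T cells of C57BL/6 mice, 6 weeks old by the labels, were isolated with magnetic beads and kept in culture for 6 hours in 4 groups of 3 libraries: left untreated (Naïve), given anti-CD3 (αCD3, 1 µg/ml), which engages the T cell receptor, given interferon gamma (IFNγ, 70 ng/ml), or given lipopolysaccharide from bacteria (LPS, 1 µg/ml). A second field of the labels has mg/ml for αCD3 and LPS, and the study's methods give the mice of all experiments a higher age, so these units and the age are uncertain. Those methods describe T cell culture with interleukin 2 on plates coated with anti-CD3 unless mentioned otherwise, and whether this held for these libraries, controls included, is not given in the sources used here. The study set the expression profile under IFNγ against those under αCD3 and LPS, and the same comparisons were made here for the granule release genes.

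A granule is first tethered at the membrane by the small GTPase Rab27a, which recruits the priming factor Munc13-family protein encoded by Unc13d. Fusion is then carried out by SNARE proteins, in which the target-membrane syntaxin Stx11 is held and guided by its chaperone Stxbp2 and meets a vesicle-borne partner such as Vamp7 or Vamp8. Inherited loss of Unc13d, Rab27a, Stx11 or Stxbp2 leaves killer cells that hold granules but fail to release them, and leads to haemophagocytic lymphohistiocytosis. Lamp1, Lamp2 and Cd63 are membrane proteins of lysosomes that reach the cell surface when granules fuse, and serglycin, the product of Srgn, binds granzymes and perforin through its sulphated sugar chains.

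Library totals ranged from 10.2 M to 27.6 M estimated counts, with the highest in αCD3 replicate 1, and between 14348 and 15372 genes were detected. The granule release genes held between 166 (Cd63) and 23117 counts in a library. All 9 T cell markers, Cd8a and Cd8b1 among them, were present, with a summed level of 1246 to 2379 CPM, which are counts relative to the TMM-scaled total of their library, as are all CPM values given here. The 9 B cell markers summed to 2042 to 3715 CPM and the 14 macrophage and monocyte markers to 750.1 to 2344 CPM, and no gene of either list was at 0 in all libraries of a group. The B cell sum lay above the T cell sum in 12 of 12 libraries, on a CPM scale that is not per length. Because these are bulk samples, fewer cells of a type and less RNA per cell cannot be told apart. The labels do not say that libraries came from separate mice, so p-values measure the spread between these libraries, which may be technical.

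Of the 10 genes, 6 differed among the 4 groups in the quasi-likelihood F-test of edgeR (Stx11, Vamp8, Rab27a, Unc13d, Srgn and Stxbp2), against 59.9% of all tested genes. A gene is called where its p, after Benjamini-Hochberg adjustment across the whole set of tested genes, was under 0.05. Under IFNγ, 2 genes were called higher than in Naïve libraries (Stx11 and Srgn) and 0 lower, where 12.4% of all tested genes were called, 8.17% higher and 4.27% lower. Under αCD3, 3 were called higher (Rab27a, Stx11 and Srgn) and 2 lower (Cd63 and Vamp8), with a background of 38.6%, 22.9% higher and 15.7% lower. Under LPS, 2 were called higher (Stx11 and Srgn) and 3 lower (Unc13d, Stxbp2 and Vamp8), with a background of 49.3%, 26.9% higher and 22.3% lower. The libraries of the 2 groups did not overlap in 3 of the 10 genes under IFNγ, 5 under αCD3 and 5 under LPS, where 31.5%, 52.4% and 58% of all tested genes did not. With the replicate number as a block, 3 of the 10 genes were higher and 2 lower under IFNγ, 3 and 4 under αCD3, and 3 and 5 under LPS, while that fit called 1642 genes higher and 1378 lower, 3411 and 2938, and 3762 and 3445 of the 12122. Nothing is read from these counts about the 10 genes as a group. The median log2 fold change of the 10 genes was -0.0017 under IFNγ, 0.0246 under αCD3 and -0.192 under LPS, beside -0.0235, -0.0166 and -0.00985 over all tested genes. The 3 comparisons share their Naïve libraries and are not independent of each other. The plot of CPM by library shows every value, and the plot of changes against Naïve shows each difference with its interval.

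**Figure D1:**
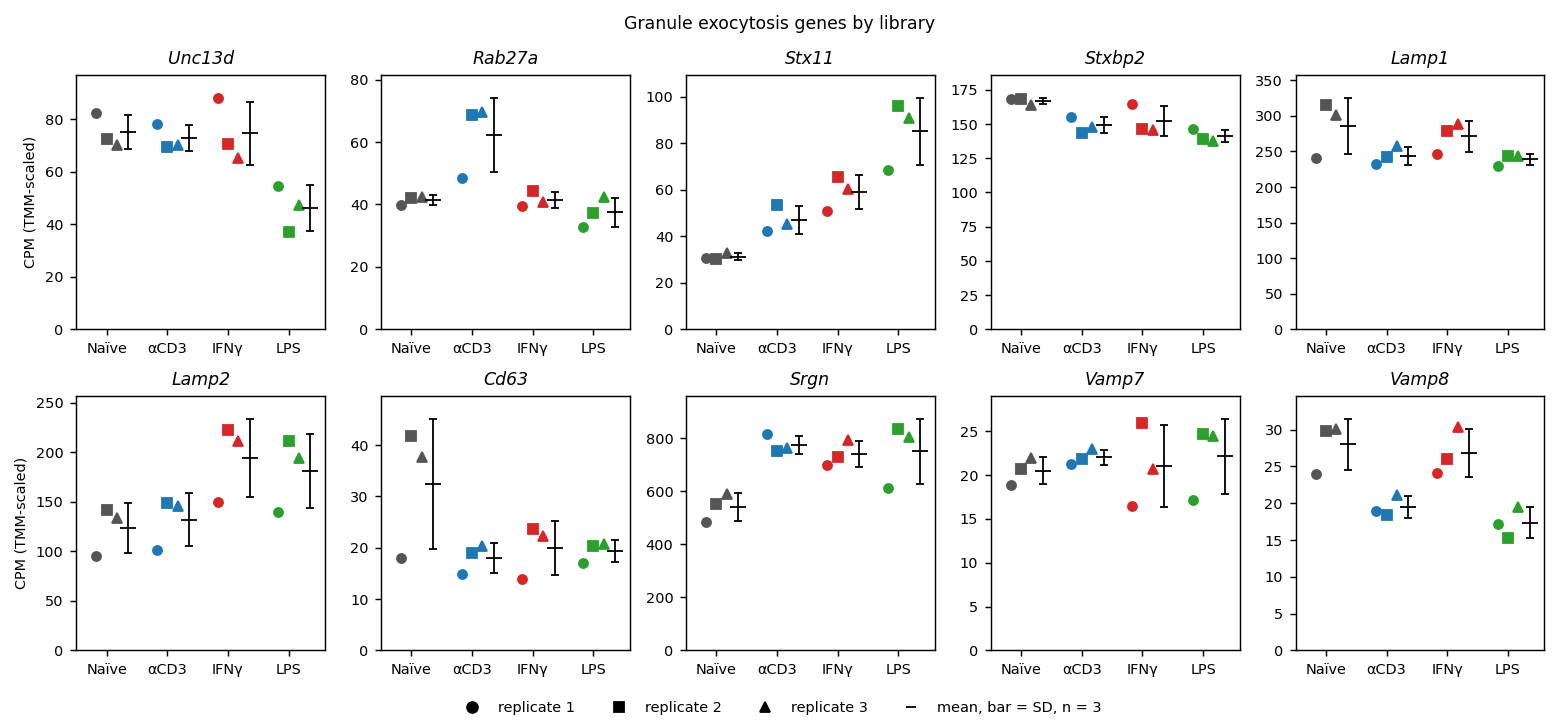
CPM on TMM-scaled library size (y axes, each from 0) of the 10 granule release genes in each of the 12 libraries, by group (x axes). Marker shapes stand for the replicate number and the bar beside each group for the mean ± SD (n = 3). Stx11 lies between 30.0 and 32.8 CPM in Naïve libraries and at 42.1 CPM or more in all treated libraries, and Lamp2 and Cd63 are lowest in replicate 1 of every group.

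Stx11, the syntaxin of the fusion step, was higher under all 3 treatments. Its level was 30.5, 30.0 and 32.8 CPM in Naïve libraries, 42.1, 53.6 and 45.4 under αCD3, 50.9, 65.5 and 60.4 under IFNγ, and 68.5, 95.8 and 90.7 under LPS. The Naïve libraries lay below all treated libraries and the LPS libraries above all others, while αCD3 and IFNγ overlapped. The fold change against Naïve was 1.51 (95% interval 1.22 to 1.86, adjusted p = 0.00693) under αCD3, 1.89 (1.53 to 2.34, adjusted p = 0.002) under IFNγ and 2.73 (2.21 to 3.38, adjusted p = 1.78e-05) under LPS. Compared directly, the level under LPS exceeded that under IFNγ (log2 fold change of IFNγ over LPS -0.53 ± 0.137 (SE), adjusted p = 0.01) and that under αCD3 (αCD3 over LPS -0.86 ± 0.137, adjusted p = 0.00168). IFNγ against αCD3 missed the threshold, at 0.33 with an interval of 0.02 to 0.63 and adjusted p = 0.0863. With the replicate number as a block this difference was 0.32 and was called (adjusted p = 0.0103, range over 12 alternatives 0.0103 to 0.259). All 5 other calls of Stx11 were also made under each of the 12 alternatives. The libraries hold markers of other cells beside T cells, and the part of these cells in the Stx11 levels was not tested.

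Stxbp2, which encodes the chaperone that binds this syntaxin, moved the other way and by far less. It was at 168, 168 and 164 CPM in Naïve libraries, 155.5, 144 and 148 under αCD3, 164.5, 147 and 145.5 under IFNγ, and 146, 139 and 138 under LPS. All αCD3 and LPS libraries lay below all Naïve libraries, and 1 IFNγ library reached into the Naïve range. Under LPS Stxbp2 fell by 0.24 ± 0.0627 on the log2 scale (adjusted p = 0.00836), to 0.845 of the Naïve level. Under αCD3 the log2 fold change was -0.16 (interval -0.30 to -0.02, adjusted p = 0.0614) and under IFNγ it was -0.13 (-0.27 to 0.01, adjusted p = 0.215). The block on replicate number called both, with adjusted p = 0.00998 for αCD3 (range over 12 alternatives 0.00998 to 0.19) and 0.0485 for IFNγ (0.0161 to 0.491). Without the block, DESeq2 called αCD3 (-0.17, adjusted p = 0.0109) and not IFNγ (-0.13, adjusted p = 0.149). EdgeR with library size alone called αCD3 (-0.27, adjusted p = 0.0185) and IFNγ (-0.27, adjusted p = 0.0362). The medians of all tested genes were then -0.127 and -0.162. The treatments did not differ from each other in Stxbp2 beyond their spread, the widest difference being IFNγ over LPS at 0.11 (interval -0.03 to 0.25). Over the 12 libraries, the log2 levels of Stx11 and Stxbp2 had a Pearson correlation of -0.895, a description in which the libraries share their groups.

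The promoter of Stx11 is shown because Stx11 was the gene of the 10 with the smallest p among the 4 groups. It was read from the RefSeq promoter table on GRCm38.p6 as the 250 bases before the annotated start, chr10:12964260-12964509 on the minus strand, 5′ to 3′. Capitals mark matches to a loose form of the kappa B site, which NF-κB binds, searched on both strands.
Stx11: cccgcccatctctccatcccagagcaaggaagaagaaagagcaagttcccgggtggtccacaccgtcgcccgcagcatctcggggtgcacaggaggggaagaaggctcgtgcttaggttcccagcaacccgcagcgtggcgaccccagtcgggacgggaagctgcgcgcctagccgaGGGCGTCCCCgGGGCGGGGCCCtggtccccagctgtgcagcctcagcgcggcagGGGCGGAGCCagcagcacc
The 4 matches begin at positions -73, -62, -61 and -19 from the start, with the middle pair overlapping. Such matches are common, found in 50.8% of all 32851 promoter windows of 300 bases and in 6 of the 10 windows that cover 8 of the genes, and the Stx11 window is 71.0% G and C against a median of 52.7%. The match describes the sequence only.

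Rab27a, which tethers granules to the membrane, was higher under αCD3 alone among the treatments called against Naïve. Its level was 39.7, 42.1 and 42.5 CPM in Naïve libraries, 48.4, 68.7 and 69.7 under αCD3, 39.4, 44.3 and 40.9 under IFNγ, and 32.9, 37.1 and 42.4 under LPS. Each αCD3 library lay above every library of the other groups, and αCD3 replicate 1 was the lowest of its group. Against Naïve, αCD3 gave 1.498-fold (1.22 to 1.84, adjusted p = 0.00638). The difference from the other treatments was tested directly: IFNγ over αCD3 was -0.58 ± 0.136 (adjusted p = 0.00653) and αCD3 over LPS 0.73 ± 0.136 (adjusted p = 0.00423). IFNγ over Naïve was 0.00 (interval -0.30 to 0.30) and LPS over Naïve -0.14 (-0.44 to 0.16), neither called. The 3 calls of Rab27a were made under all 12 alternatives. T cell markers were also higher under αCD3, with 5 of 9 called higher and 0 lower against Naïve, 6 of 9 lower under IFNγ than under αCD3 and 8 of 9 higher under αCD3 than under LPS, and their part in the Rab27a result was not tested. The shares of all tested genes were 22.9% and 15.7%, 21.4% and 9.64% in the same order. A processed pseudogene, Gm27186, overlaps Rab27a on the same strand, and 95.2% of the 31-base words of Rab27a transcripts are found in no other gene.

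Unc13d, whose product primes tethered granules for fusion, was lower under LPS than in each other group. The values were 82.5, 72.5 and 70.4 CPM in Naïve libraries, 78.4, 69.6 and 70.3 under αCD3, 88.3, 70.8 and 65.3 under IFNγ, and 54.6, 37.1 and 47.2 under LPS. The LPS libraries lay below all 9 others, and the other 3 groups overlapped. Unc13d fell by 0.70 ± 0.144 on the log2 scale against Naïve (adjusted p = 0.0024), to 0.615 of its level. IFNγ exceeded LPS by 0.69 ± 0.145 (adjusted p = 0.00307) and αCD3 exceeded LPS by 0.65 ± 0.144 (adjusted p = 0.00992), and all 3 differences were called under each of the 12 alternatives. Neither IFNγ (log2 fold change -0.01, interval -0.32 to 0.31) nor αCD3 (-0.05, -0.36 to 0.27) was called against Naïve. T cell markers were also lower under LPS, where 7 of 9 were called lower and 0 higher, beside 22.3% and 26.9% of all tested genes. The summed level of these markers was 1551 to 1743 CPM in Naïve, 2190 to 2379 under αCD3, 1577 to 1708 under IFNγ and 1246 to 1429 under LPS. Their part in the result was not tested.

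Vamp8, a SNARE of late endosomes and granules, was lower under αCD3 and LPS and not under IFNγ. It was at 23.99, 29.9 and 30.1 CPM in Naïve libraries, 19.0, 18.4 and 21.2 under αCD3, 24.1, 26.0 and 30.4 under IFNγ, and 17.2, 15.3 and 19.6 under LPS. The αCD3 and LPS libraries lay below all Naïve and all IFNγ libraries, and Naïve and IFNγ overlapped. Vamp8 fell by 0.52 ± 0.127 on the log2 scale under αCD3 (adjusted p = 0.00859) and by 0.69 ± 0.129 under LPS (adjusted p = 0.00139), while IFNγ gave -0.06 (interval -0.34 to 0.22). IFNγ exceeded αCD3 by 0.46 ± 0.129 (adjusted p = 0.0163) and LPS by 0.63 ± 0.131 (adjusted p = 0.00296), and αCD3 and LPS did not differ beyond their spread (0.17, interval -0.12 to 0.46). The call of IFNγ against αCD3 was lost without αCD3 replicate 2 (adjusted p = 0.0578) or IFNγ replicate 3 (0.0691), within a range of 0.00207 to 0.0691 over 12 alternatives.

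Some B cell markers were lower beside Vamp8. Of 9, 5 were called lower under αCD3, 3 lower and 1 higher under LPS, and 2 lower under IFNγ. Their summed level was 3388 to 3715 CPM in Naïve, 2379 to 2755 under αCD3, 2726 to 2817 under IFNγ and 2042 to 3037 under LPS, and 3 were higher and 1 lower under IFNγ than under αCD3, and 3 higher and 4 lower than under LPS. The macrophage and monocyte markers had median log2 fold changes of -0.735 under αCD3, -0.938 under LPS and 0.03 under IFNγ against Naïve, and of these 14 genes 4 were higher and 0 lower under IFNγ than under αCD3, and 6 higher and 2 lower than under LPS. Of all tested genes, 15.7% were lower under αCD3, 22.3% lower and 26.9% higher under LPS, and 4.27% lower under IFNγ. Under IFNγ 15.8% were higher and 21.4% lower than under αCD3, and 18% and 22.4% than under LPS. The part of either marker list in the Vamp8 result was not tested. The 3 tested genes most like Vamp8 over the 12 libraries, by Pearson correlation of log2 CPM, were Mzb1 (0.988), a chaperone of antibody-making B cells, Aldh3b1 (0.972) and Grcc10 (0.951). Mzb1 had group means of 123.5 CPM in Naïve, 81.9 under αCD3, 119.7 under IFNγ and 71.3 under LPS, the same order as Vamp8. For Stx11 the most alike were Ppp1r15b (0.979), a regulator of the translation factor phosphatase, Dnajb6 (0.974), a chaperone, and Slfn10-ps (0.973). These correlations are descriptions across libraries that share their groups.

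Vamp7, the other vesicle SNARE, was called in 0 of the 6 comparisons in edgeR, and in 0 of them under each of the 12 alternatives, DESeq2 and limma-voom included. In Naïve libraries it was at 18.9, 20.7 and 21.9 CPM, under αCD3 at 21.3, 21.8 and 22.96, under IFNγ at 16.5, 25.9 and 20.8, and under LPS at 17.2, 24.7 and 24.5. All groups overlapped. The intervals of its log2 fold changes against Naïve were -0.27 to 0.47 under αCD3, -0.33 to 0.41 under IFNγ and -0.26 to 0.49 under LPS, so changes of these sizes could not be told from 0.

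**Figure D2:**
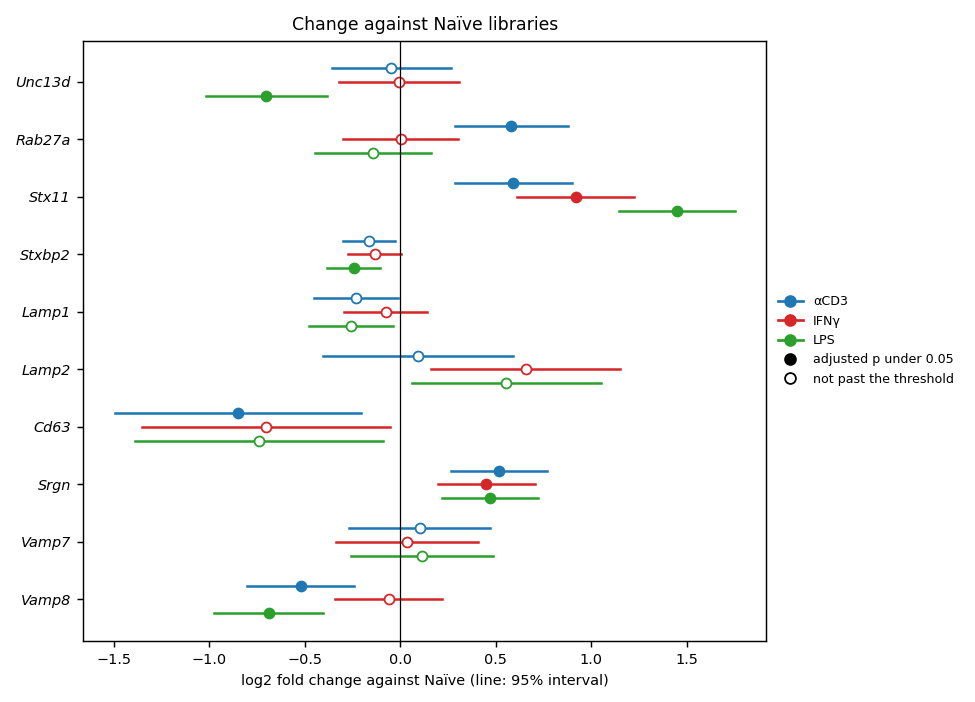
Log2 fold change (x axis) of each granule release gene (y axis) under αCD3, IFNγ and LPS against Naïve, 3 libraries per group, with 95% intervals from the edgeR fit as lines. Filled points passed adjusted p under 0.05. Stx11 and Srgn are filled to the right of 0 under all 3 treatments, Rab27a under αCD3 alone, and Unc13d to the left of 0 under LPS alone.

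Srgn, which encodes the core protein of the granule matrix, was higher under all 3 treatments by nearly the same amount. It was at 485, 551 and 589.7 CPM in Naïve libraries, 815, 752 and 762 under αCD3, 699, 731 and 794 under IFNγ, and 611, 836 and 806.5 under LPS. Every treated library lay above every Naïve library. The fold change was 1.43 (1.20 to 1.71, adjusted p = 0.00494) under αCD3, 1.37 (1.15 to 1.63, adjusted p = 0.0264) under IFNγ and 1.39 (1.16 to 1.65, adjusted p = 0.00599) under LPS. Differences between treatments had intervals of -0.32 to 0.19 on the log2 scale for IFNγ over αCD3, -0.27 to 0.23 for IFNγ over LPS and -0.20 to 0.30 for αCD3 over LPS. The part of other cells in the Srgn levels was not tested.

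The Srgn call under αCD3 was made under all 12 alternatives. The call under IFNγ was the weakest of the 3 and was lost without Naïve replicate 1 (adjusted p = 0.0882), Naïve replicate 2 (0.0747), IFNγ replicate 2 (0.0736) or IFNγ replicate 3 (0.0996), within a range of 0.00133 to 0.0996 over 12 alternatives. When counts were scaled by library size and not by TMM, the median of all genes shifted to -0.162 under IFNγ, -0.127 under αCD3 and -0.219 under LPS. Srgn then had log2 fold changes of 0.31 under IFNγ (adjusted p = 0.064) and 0.26 under LPS (adjusted p = 0.0607), no longer called but still above those medians, and 0.41 under αCD3, called.

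Per kilobase of median transcript length, averaged over the 12 libraries, Srgn had the highest level of the 9 genes with an annotated length, at 1212 CPM per kb, before Stxbp2 (252), Lamp1 (183) and Lamp2 (59.9). Stx11, Cd63, Unc13d, Rab27a and Vamp8 lay between 15.8 and 24.8 CPM per kb. Lengths rest on GENCODE M21, where Stxbp2 has 15 transcripts, many of them short. With the longest transcript instead, Srgn was still first, at 407 CPM per kb, Lamp1 (117) passed Stxbp2 (52.4), and the order of the lower 5 genes changed, so no order is read among them or between Stxbp2 and Lamp1.

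A second annotated start of Srgn, within the gene, holds 1 match to the interferon-stimulated response element, which interferon regulatory factors bind. The match is in capitals in the 250 bases before that start, chr10:62507758-62508007 on the minus strand of GRCm38.p6, from the RefSeq table and shown because Srgn was called under IFNγ.
Srgn: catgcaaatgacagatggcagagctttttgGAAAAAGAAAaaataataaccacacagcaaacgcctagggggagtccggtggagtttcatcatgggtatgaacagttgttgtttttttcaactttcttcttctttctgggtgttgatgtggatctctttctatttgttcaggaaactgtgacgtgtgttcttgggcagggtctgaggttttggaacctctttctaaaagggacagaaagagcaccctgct
The match begins at position -220, 2 of the 10 windows (Srgn and, at -135, Lamp1, which was not called under IFNγ) and 3.44% of all windows hold a match on either strand, and the counts per gene do not tell the starts apart. Of the other interferon motif searched, the gamma-activated site, 1 of the 10 windows held a match (Vamp8, at -121), against 8.30% of all windows. The AP-1 letters TGANTCA were in 0 of the 10 windows and in 7.81% of all windows.

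Lamp2, a heavily glycosylated protein of the lysosomal membrane, had higher levels under IFNγ and LPS within each replicate number. Its levels were 94.8, 142 and 134 CPM in Naïve replicates 1 to 3, 101, 149 and 146 under αCD3, 149.7, 223 and 211 under IFNγ, and 139, 211 and 194 under LPS. Replicate 1 was the lowest of every group by a wide margin, all IFNγ libraries lay above all Naïve libraries, and LPS replicate 1 fell within the Naïve range. Within replicate numbers, the ratio of IFNγ to Naïve was 1.58, 1.57 and 1.58 for numbers 1, 2 and 3, that of LPS to Naïve 1.47, 1.49 and 1.45, and that of αCD3 to Naïve 1.06, 1.05 and 1.09. Without the block, the log2 fold change was 0.66 under IFNγ (interval 0.16 to 1.15, adjusted p = 0.0887) and 0.56 under LPS (0.06 to 1.05, adjusted p = 0.062), and neither was called by edgeR. DESeq2, also without the block, called both (0.66 with adjusted p = 0.0312 and 0.54 with adjusted p = 0.0385), and limma-voom called neither (0.0906 and 0.0623).

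With the replicate number as a block, Lamp2 was called under IFNγ (0.66, adjusted p = 7.64e-06, range over 12 alternatives 7.64e-06 to 0.27) and under LPS (0.55, adjusted p = 9.18e-07, range 9.18e-07 to 0.197). The block also called IFNγ over αCD3 (0.56, adjusted p = 1.5e-06, range 1.5e-06 to 0.209, without the block 0.0741 in edgeR and 0.035 in DESeq2), αCD3 over LPS (-0.46, adjusted p = 1.5e-05, range 1.5e-05 to 0.437) and IFNγ over LPS (0.10, adjusted p = 0.0428, range 0.0428 to 0.984). Replicates 2 and 3 alone, an alternative chosen after seeing the data, also gave a call for IFNγ (0.64, adjusted p = 8.68e-05) and LPS (0.56, adjusted p = 6.02e-05) against Naïve. The replicate numbers differed in their cell markers too. The 14 macrophage and monocyte markers summed to 822, 1501 and 1564 CPM in Naïve replicates 1 to 3, 750.1, 1490 and 1458 under αCD3, 1354, 2344 and 2317 under IFNγ, and 954, 1580 and 1435 under LPS. In that list 2 genes were called higher and 1 lower under IFNγ, 1 higher and 4 lower under αCD3, and 2 higher and 7 lower under LPS. The shares of all tested genes were 8.17% and 4.27%, 22.9% and 15.7%, and 26.9% and 22.3% in the same order. The part of these cells in the Lamp2 levels was not tested. The 5 erythroid genes in the table were also lowest in replicate 1 of each group, at 336 to 569 CPM in sum against 1296 to 4114 in the other libraries.

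**Figure D3:**
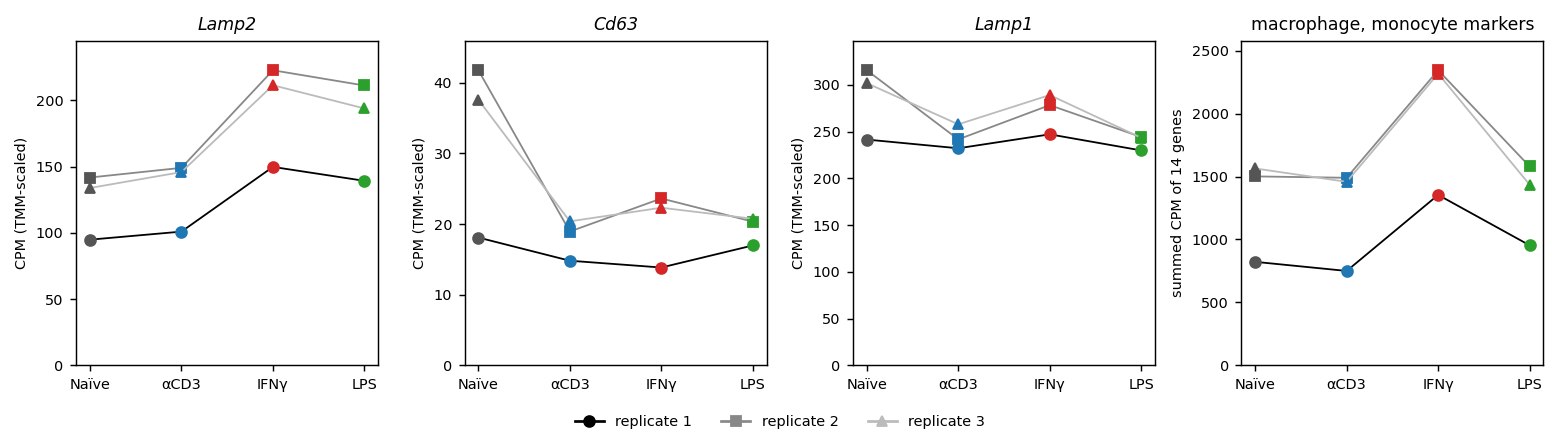
CPM (y axes, from 0) of Lamp2, Cd63 and Lamp1 and the summed CPM of 14 macrophage and monocyte markers in each library, by group (x axes), with lines joining libraries of 1 replicate number. Replicate 1 is the lowest library of each group in all 4 panels, and Lamp2 under IFNγ is 1.57 to 1.58 times the Naïve value of the same replicate number.

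Cd63, a tetraspanin of granule membranes, had its highest levels in Naïve replicates 2 and 3. It was at 18.1, 41.8 and 37.6 CPM in Naïve libraries, 14.8, 18.9 and 20.4 under αCD3, 13.8, 23.6 and 22.3 under IFNγ, and 16.97, 20.3 and 20.8 under LPS. Naïve replicate 1 lay within the treated range, so no treated group stood apart from the Naïve libraries. Cd63 fell by 0.85 ± 0.291 on the log2 scale under αCD3 (adjusted p = 0.0413). This call was lost in limma-voom (0.0666), without the filter (0.059), and without Naïve replicate 2 (0.147), Naïve replicate 3 (0.124) or αCD3 replicate 1, 2 or 3 (0.117, 0.0916 and 0.0686). Under IFNγ the value was -0.70 (interval -1.35 to -0.05, adjusted p = 0.164) and under LPS -0.74 (-1.39 to -0.09, adjusted p = 0.0595). DESeq2 without the block called LPS (-0.76, adjusted p = 0.0284) and not IFNγ (-0.70, adjusted p = 0.112). EdgeR with library size alone also called LPS (-0.95, adjusted p = 0.016) and not IFNγ (-0.85, adjusted p = 0.06).

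Within replicate numbers every treated library was below its Naïve counterpart, with ratios for numbers 1, 2 and 3 of 0.819, 0.454 and 0.542 under αCD3, 0.766, 0.566 and 0.593 under IFNγ, and 0.938, 0.487 and 0.552 under LPS. The block called Cd63 under IFNγ (-0.67, adjusted p = 0.0117, range over 12 alternatives 0.000289 to 0.416) and LPS (-0.69, adjusted p = 0.00381, range 3.24e-05 to 0.201). The difference was smaller in number 1 than in numbers 2 and 3 under all 3 treatments, and number 1 also had the lowest macrophage marker sums, whose part was not tested. Of the 31-base words of Cd63 transcripts, 84.1% are found in no other gene, and the pseudogene Cd63-ps shares some of the rest, so the division of reads between them is uncertain.

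Lamp1, the protein whose appearance on the surface is the usual sign of degranulation, changed little. It was at 241, 315.5 and 302 CPM in Naïve libraries, 232, 242 and 258 under αCD3, 247, 278 and 289 under IFNγ, and 229.8, 244 and 243 under LPS. The treated libraries reached into the Naïve range through Naïve replicate 1, and all IFNγ libraries lay above all LPS libraries. Lamp1 was called in 0 of the 6 comparisons by edgeR, and in 1 of them by DESeq2, where LPS against Naïve was -0.27 with adjusted p = 0.0292. The values from edgeR were -0.26 under LPS (interval -0.48 to -0.04, adjusted p = 0.0503), -0.23 under αCD3 (-0.45 to -0.01, adjusted p = 0.0884) and -0.08 under IFNγ (-0.30 to 0.14, adjusted p = 0.691). The block called LPS (-0.25, adjusted p = 0.00471, range over 12 alternatives 0.000671 to 0.185) and αCD3 (-0.22, adjusted p = 0.0106, range 0.00167 to 0.291) against Naïve, and IFNγ over LPS (0.18, adjusted p = 0.03, range 0.0144 to 0.378). Over the 12 libraries the log2 level of Lamp1 correlated with that of Cd63 (Pearson 0.886) and of Vamp8 (0.85).

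The promoter of Lamp1 is shown because it holds 4 copies of CACGTG, the core letters of the element through which lysosomal genes are bound by the transcription factor TFEB. The copies are in capitals in the 250 bases before the start, chr8:13158911-13159160 on the plus strand of GRCm38.p6, from the RefSeq table.
Lamp1: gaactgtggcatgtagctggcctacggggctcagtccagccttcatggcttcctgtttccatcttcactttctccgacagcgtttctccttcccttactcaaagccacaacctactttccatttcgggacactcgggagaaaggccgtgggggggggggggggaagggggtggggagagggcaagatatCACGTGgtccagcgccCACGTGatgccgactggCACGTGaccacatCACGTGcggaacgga
The copies begin at -61, -45, -28 and -15. At least 1 copy is found in 7.15% of all windows and in 3 of the 10 windows of the granule release genes (Lamp1, Rab27a and Stxbp2), and 4 or more in 8 of 32851 windows, or 0.0244%. These letters read the same on both strands, and the match describes the sequence only.

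Other membrane proteins of lysosomes were more often lower than higher under αCD3 and LPS. Of 24 such genes and tetraspanins, 0 were called higher and 14 lower under αCD3, 3 higher and 14 lower under LPS, and 5 higher and 2 lower under IFNγ. Of all tested genes, 22.9% were called higher and 15.7% lower under αCD3, 26.9% and 22.3% under LPS, and 8.17% and 4.27% under IFNγ. Their median log2 fold change was -0.463 under αCD3, -0.54 under LPS and -0.0854 under IFNγ, beside medians of -0.0166, -0.00985 and -0.0235 over all tested genes. With library size alone, these medians were -0.572, -0.754 and -0.224 against all-gene medians of -0.127, -0.219 and -0.162, and the counts were 0 and 15, 1 and 15, and 4 and 6. Then 17.3% of all tested genes were higher and 22% lower under αCD3, 17.7% and 36.1% under LPS, and 5.9% and 12.9% under IFNγ. The largest changes were under LPS: Atp6v0a1, a proton pump subunit, fell by 1.13 ± 0.136 (adjusted p = 7.59e-05), the sialic acid exporter Slc17a5 by 1.097 ± 0.154 (0.000216), the cystine exporter Ctns by 1.01 ± 0.151 (0.000334) and the tetraspanin Tspan32 by 0.94 ± 0.194 (0.00251). Compared directly, 11 of the 24 were called higher and 0 lower under IFNγ than under αCD3, and 14 higher and 2 lower than under LPS, with backgrounds of 15.8% higher and 21.4% lower, and 18% higher and 22.4% lower. The count higher for IFNγ over αCD3 was 16 with the block and 20 with replicates 2 and 3 only, where 23.7% and 20.4% of all tested genes were higher. Under IFNγ the 5 called higher, which include the sorting receptor Scarb2 (0.74) and the chloride exchanger Clcn7 (0.75), were named after their values were seen. The macrophage marker list moved beside these counts, with 1 of 14 higher and 4 lower under αCD3, and 2 higher and 7 lower under LPS. Of 9 B cell markers, 0 were higher and 5 lower under αCD3, and 1 higher and 3 lower under LPS. Of 9 T cell markers, 5 were higher and 0 lower under αCD3, and 0 higher and 7 lower under LPS. The part of these lists was not tested.

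Of 36 other genes of secretory lysosome transport and fusion, 35 were tested, and 1 was called higher and 2 lower under IFNγ, 2 and 7 under αCD3, and 5 and 12 under LPS. Over all tested genes, 8.17% were called higher and 4.27% lower under IFNγ, 22.9% and 15.7% under αCD3, and 26.9% and 22.3% under LPS. With the block the counts for the list were 6 and 6, 4 and 12, and 8 and 13, and with library size alone 1 and 7, 1 and 12, and 3 and 18. Of all tested genes, 13.5% were higher and 11.4% lower with the block under IFNγ, 28.1% and 24.2% under αCD3, and 31% and 28.4% under LPS. With library size alone these shares were 5.9% and 12.9%, 17.3% and 22%, and 17.7% and 36.1%. Sytl3, a synaptotagmin-like protein that binds Rab27 proteins, was at 11.3, 7.90 and 11.4 CPM in Naïve libraries and 33.3, 58.5 and 44.9 under LPS, and rose 4.45-fold (adjusted p = 0.000171). Lyst, the regulator of lysosome size lost in Chediak-Higashi syndrome, was at 399, 497 and 521 CPM in Naïve libraries and 141, 120.5 and 146 under αCD3, where it fell by 1.80 ± 0.157 on the log2 scale (adjusted p = 2.13e-05). Stxbp3, a relative of Stxbp2, was at 67.8, 71.5 and 69.4 CPM in Naïve libraries and 112, 173 and 159 under IFNγ, and rose 2.13-fold (adjusted p = 0.0042), the 1 gene of this list called higher there. Sytl1 fell by 0.90 ± 0.281 under LPS (adjusted p = 0.022), from a mean of 9.61 to 5.21 CPM. Under αCD3 5 of 9 T cell markers were higher and 0 lower, 0 of 9 B cell markers higher and 5 lower. Under LPS these counts were 0 and 7, and 1 and 3. Of 14 macrophage and monocyte markers, 1 was higher and 4 lower under αCD3, and 2 and 7 under LPS. The part of these markers in the counts of this list was not tested.

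Serglycin carries its sugar chains only after a series of enzymes has built them. Of 19, 18 were tested, and 0 were called higher and 4 lower under IFNγ, 4 and 4 under αCD3, and 2 and 8 under LPS, beside the same shares of all tested genes, to which the αCD3 counts lie close. With the block 7 were lower under αCD3, and with library size alone 6 were lower under αCD3 and 12 under LPS, where 24.2%, 22% and 36.1% of all tested genes were lower. Under LPS 0 of the 9 T cell markers were higher and 7 lower, and 2 of the 14 macrophage and monocyte markers were higher and 7 lower. The 9 B cell markers had 1 higher and 3 lower there. The part of these lists in the counts was not tested. Xylt1, which starts the chain, was at 117, 106.5 and 103 CPM in Naïve libraries and 39.7, 28.1 and 29.7 under LPS, where it fell by 1.75 ± 0.196 (adjusted p = 5.89e-05). It was also called lower under IFNγ (-0.98) and αCD3 (-0.81). The sulphotransferase Chst15 fell by 1.29 ± 0.194 under LPS (adjusted p = 0.000369) and Chst11 by 1.01 ± 0.164 under IFNγ (adjusted p = 0.00291). B3galt6, which adds a galactose to the linker, rose 2.43-fold under LPS (adjusted p = 2.57e-05).

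Among 12 genes of granule cargo, 1 was called higher and 0 lower under IFNγ, 3 and 2 under αCD3, and 2 and 4 under LPS, beside backgrounds of 8.17% and 4.27%, 22.9% and 15.7%, and 26.9% and 22.3% of all tested genes. The IFNγ and αCD3 counts lie close to these shares. With the block the counts were 2 and 0, 5 and 3, and 4 and 4. The shares of all tested genes were then 13.5% and 11.4%, 28.1% and 24.2%, and 31% and 28.4%. The count higher under LPS was 0 in limma-voom and 5 with replicates 2 and 3 only, where 26.8% and 29.2% of all tested genes were higher. Gzmb, the apoptosis-inducing granzyme, was at 13.4, 24.1 and 29.3 CPM in Naïve libraries and 54.2, 561 and 422 under αCD3, a 15.6-fold rise (adjusted p = 0.00741) in which replicate 1 was far below the other libraries of its group. Nkg7, a granule membrane protein needed for degranulation, was at 29.6, 37.5 and 28.3 CPM in Naïve libraries and 81.2, 133 and 114 under αCD3 (3.44-fold, adjusted p = 0.000325). The 1 cargo gene called higher under IFNγ was Ctsc, the cathepsin that activates granzymes, at 170, 193 and 196.5 CPM in Naïve libraries and 365, 492 and 478 under IFNγ (2.39-fold, adjusted p = 0.000321). Ctsd, a lysosomal protease, fell by 0.76 ± 0.14 on the log2 scale under LPS (adjusted p = 0.00126). Of 9 T cell markers, 5 were higher and 0 lower under αCD3, and 0 higher and 7 lower under LPS. The 14 macrophage and monocyte markers had 2 higher and 1 lower under IFNγ, 1 and 4 under αCD3, and 2 and 7 under LPS. The part of these markers in the cargo results was not tested.

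**Figure D4:**
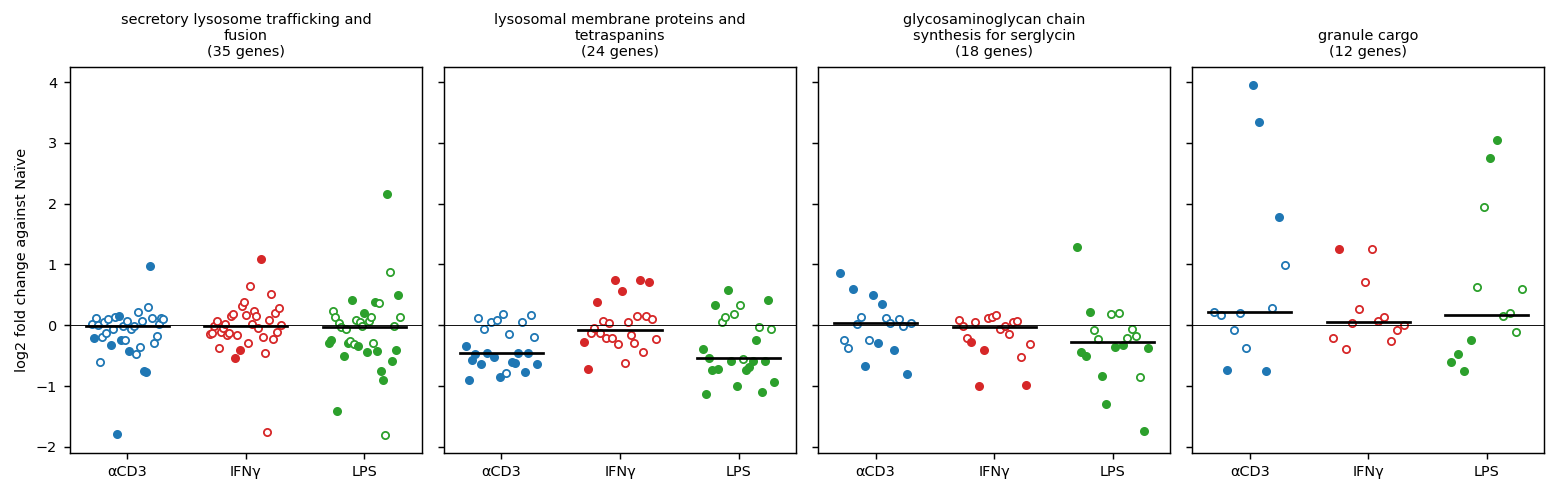
Log2 fold change against Naïve (y axis) under αCD3, IFNγ and LPS (x axes) for the tested genes of 4 lists, 1 point per gene, filled where adjusted p was under 0.05, with the median as a black line. The median of the lysosomal membrane list lies at -0.463 under αCD3, -0.0854 under IFNγ and -0.54 under LPS.

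The treatments were also set directly against each other. IFNγ and αCD3 differed in 2 of 10 (Vamp8 higher and Rab27a lower under IFNγ), with 37.2% of all tested genes called, 15.8% higher and 21.4% lower. IFNγ and LPS differed in 3 of 10 (Unc13d and Vamp8 higher and Stx11 lower under IFNγ), with 40.4% called, 18% higher and 22.4% lower. αCD3 and LPS differed in 3 of 10 (Unc13d and Rab27a higher and Stx11 lower under αCD3), with 19.4% called, 9.64% higher and 9.76% lower. Libraries did not overlap in 3, 4 and 3 of the 10 genes in these comparisons, against 48.4%, 49.8% and 34.8% of all tested genes. Over all 6 comparisons 20 of 60 tests were called, and Lamp1, Lamp2 and Vamp7 were called in none of them by edgeR without the block, while DESeq2 called Lamp2 in 3 and Lamp1 in 1. With the block, 3 were higher and 1 lower for IFNγ over αCD3, 4 higher and 1 lower for IFNγ over LPS, and 2 higher and 2 lower for αCD3 over LPS. In that fit 23.7% of all tested genes were higher and 25.9% lower for the first comparison, 25.8% and 26.9% for the second, and 16.5% and 18.2% for the third. Each of the 6 comparisons shares libraries with others.

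**Figure D5:**
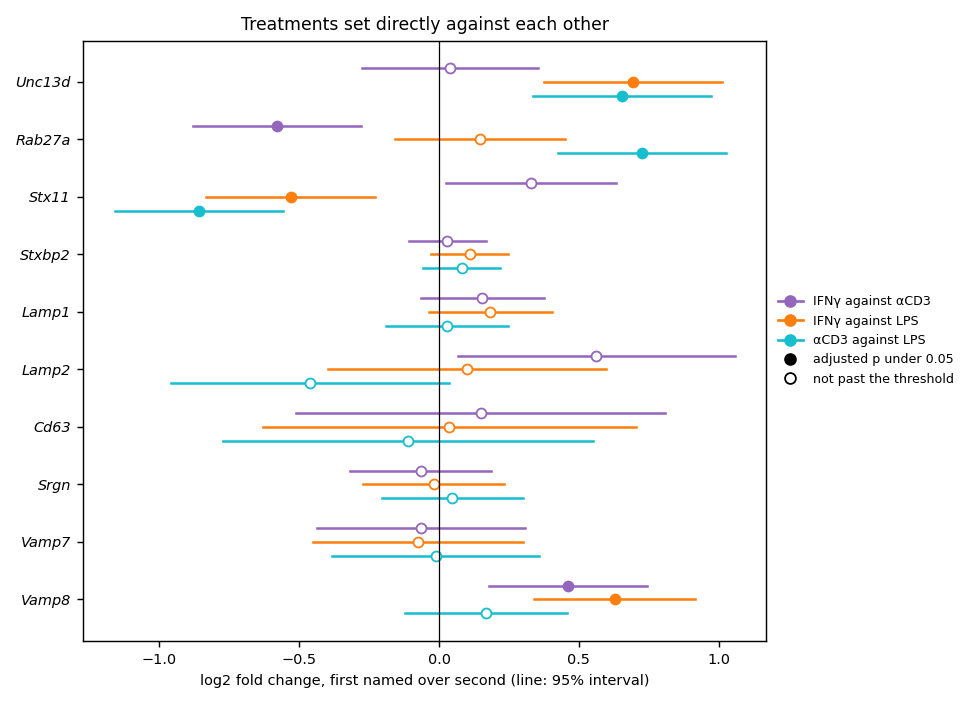
Log2 fold change (x axis) of each granule release gene (y axis) between pairs of treatments, the first named over the second, 3 libraries per group, with 95% intervals as lines and filled points where adjusted p was under 0.05. Stx11 is filled to the left of 0 in both comparisons with LPS, and Unc13d to the right, while the 3 Srgn values lie close to 0.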

How the data were processed

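RNA was sequenced from 12 libraries in 4 groups of 3, placed from GEO's labels. The authors used Kallisto with mm10 and deposited, for each library separately and unscaled, the estimated counts of each gene. The Kallisto version and annotation are not given in the sources used here. Reads shared by several transcripts are divided by estimation, so counts of genes with near-identical copies are less certain. The submitters' processing notes also name DESeq2 1.24.0.

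Expected counts were rounded, and tested by the quasi-likelihood functions of edgeR 4.0.16 (R 4.3.3) after filterByExpr and TMM, with the robust option on, with all 12 libraries in 1 fit and the group as its only term. Benjamini-Hochberg adjustment ran over 12122 genes. Correlations used log2 CPM with a prior count of 2. Alternatives were DESeq2 1.42.0, limma-voom (limma 3.58.1), library size alone, no filter, a block on the replicate number, leaving out each library, and replicates 2 and 3 only, the last added after seeing the data. The script was tested on simulated data.

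Libraries with the same number deviated together from their group means, with correlations of 0.117 to 0.401 in all 18 pairs. The main fit does not pair the libraries, and the block on the replicate number is an alternative only. Any pairing comes from the data, since the labels do not state it. No pair of libraries held identical values.

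Coordinates and transcript lengths were taken from GENCODE M21 on GRCm38, where 20612 of 20778 symbols matched. It gave 9 of the 10 genes a length. Promoter windows, for 8 of the 10, came from RefSeq (GRCm38.p6), 250 bases before to 50 after a start.

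The 10 genes, 4 pathway lists and 10 marker lists were chosen with earlier results of these data known. Of each pathway list, up to 4 genes with the largest absolute log2 fold change among those called against Naïve, at 5 CPM or more in the higher group, are named. For the 2 genes with the smallest p among the 4 groups, the 3 tested genes with the highest correlation over the libraries are named too. Marker lists of CD4 T cells, dendritic cells, NK cells, neutrophils, platelets, and mast cells and basophils were summed as well.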

Additional observations from a re-analysis of the deposited data

How the results depend on the processing

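Of 720 log2 fold changes of the 10 genes under alternatives, 656 stayed on their side of the threshold, 15 lost a call, 49 gained one and 0 of the called values changed sign. The block on the replicate number ended no call of the 10 genes, and gave 2 lower under IFNγ, 4 lower under αCD3 and 5 lower under LPS against Naïve, 3 higher for IFNγ over αCD3, 4 higher for IFNγ over LPS and 2 lower for αCD3 over LPS. Over all genes it called 1642 higher and 1378 lower under IFNγ, 2938 lower under αCD3, and 2001 higher and 2201 lower for αCD3 over LPS, where the fit without it called 990 and 518, 1906, and 1168 and 1183. In the order of the counts of the 10 genes, the block called 11.4%, 24.2%, 28.4%, 23.7%, 25.8% and 18.2% of all tested genes. With library size alone, 1 of the 10 was higher and 1 lower under IFNγ, 4 lower under αCD3, and 1 higher and 6 lower under LPS. The shares of all tested genes were 5.9% and 12.9%, 22%, and 17.7% and 36.1% in the same order. Over all genes, 1564 were then lower under IFNγ, 2140 higher and 4380 lower under LPS, and 766 lower for αCD3 over LPS. The share of calls that were higher moved with it from 65.65% to 31.37% under IFNγ, 59.28% to 43.99% under αCD3, 54.65% to 32.82% under LPS and 49.68% to 68.82% for αCD3 over LPS. DESeq2 gave 5 lower under LPS and 2 higher for IFNγ over αCD3, beside 23.7% and 18% of all tested genes. Limma-voom and the table without a filter each gave 1 lower under αCD3, beside 16.5% and 10.2% of all tested genes. Replicates 2 and 3 alone gave 2 lower under IFNγ, 4 under αCD3 and 5 under LPS, 4 higher for IFNγ over αCD3 and 2 lower for αCD3 over LPS, with 1401 genes lower under IFNγ and 1839 lower for αCD3 over LPS. The shares of all tested genes were 11.5%, 22.1%, 25.9%, 20.4% and 15.1% in the same order. In that fit the share of calls that were higher under IFNγ was 50.62%, and with the block 54.37%.

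Leaving out 1 library at a time gave, of the 10 genes, 1 to 3 higher and 0 to 1 lower under IFNγ, 1 to 3 lower under αCD3, 3 to 5 lower under LPS, and 0 to 3 higher for IFNγ over αCD3. Over all genes it gave 572 to 972 higher and 215 to 561 lower under IFNγ, 1043 to 2101 lower under αCD3, and 719 to 1296 higher and 710 to 1294 lower for αCD3 over LPS. The lowest counts came without IFNγ replicate 2, αCD3 replicate 2 and LPS replicate 2. Leaving out 1 library also gave 1965 to 2845 genes lower under LPS and 1311 to 2049 higher for IFNγ over αCD3. Why the counts moved was not tested, beyond fewer libraries in those fits. With 3 libraries per group, intervals of about 0.3 on the log2 scale to either side of Rab27a and Stx11, and of about 0.5 around Lamp2, limit which changes could be detected.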

Other observations

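Marker lists of other cells that were not set beside a result had low levels. The summed level was 101 to 214 CPM for 8 neutrophil genes, 30.9 to 77.8 CPM for 6 dendritic cell genes and 8.52 to 26.1 CPM for 6 platelet genes. Of these, Ly6g was at 0 in all αCD3 libraries and Cd209a in all LPS libraries. The sum was 41.1 to 70.4 CPM for 3 CD4 T cell genes, 5.62 to 21.7 CPM for 4 NK cell genes and 0.724 to 3.67 CPM for 4 mast cell and basophil genes, of which Fcer1a was at 0 in all αCD3 and all LPS libraries.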
